A study of Bos taurus with 147 samples.

Results

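The early secretory pathway takes new proteins into the endoplasmic reticulum (ER) and on to the Golgi. Of the 10986 transcripts measured in the adrenal cortex, 52 carried a single gene symbol of this pathway: names that begin with SEC, SRP, PDIA, TMED or COP followed by a number or subunit letter, together with SSR1 to SSR4 and SPCS1 to SPCS3. They stand for 51 genes, because SPCS3 had 2 transcripts (12862782, and 12823440, which the platform gives 2 gene identifiers under that symbol). A further transcript that shares the symbols PDIA6 and LOC511898 was not used, and SEC14L1, a lipid-binding protein, matched the spelling only. The naming rule itself uses no measured value, but the pathway was picked with earlier results of these data known.

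The samples were adrenal cortex RNA of 145 F2 cows of a cross of Charolais sires and German Holstein cows, with 1 array per cow. All cows were female, kept in the same barn, and slaughtered on day 30 after parturition in the second lactation, so that no untreated or control group exists and the cows differ in date of slaughter, age and family. They fall into 25 classes of year and season of slaughter with 2 to 13 cows each, named as in summer2004 and autumn2011. The 8 years of slaughter, which end with 2011, held 7, 11, 6, 22, 39, 24, 21 and 15 cows in their order, and years before 2008 are called the first (that of summer2004), the second, the third and the fourth year here. By season there were 45 summer, 38 autumn, 36 spring and 26 winter cows. The winter cows came from the classes winter2007 to winter2010 only, and the summer cows from every year. Age at slaughter ran from 1127 to 1774 days. The cows are half-sibs and full-sibs of 1 resource population, pedigree was not analysed here, and the p-values treat them as independent.

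A signal peptide that leaves the ribosome is bound by the signal recognition particle, an RNA-protein complex that brings the ribosome to the ER membrane. There the chain passes through the translocon, a channel built of SEC61 subunits and helped by SEC62, SEC63 and the translocon-associated protein complex (TRAP, the SSR subunits). Signal peptidase removes the signal peptide, protein disulfide isomerases form disulfide bonds, COPII vesicles carry the cargo to the Golgi and COPI vesicles bring proteins back, with p24 proteins (TMED genes) as cargo receptors of both. In the steroid-forming cells of the cortex, the cholesterol receptors and the membrane-bound ER enzymes of steroid synthesis enter the membrane by this route.

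Values are log2 signals, as the authors deposited them, and 1 unit is a doubling of signal. The 52 transcripts had mean signals of 6.36 (TMED5) to 12.96 (SSR2), and signals of different transcripts come from different probes and are not set against each other. Over the whole series, array medians ran from 7.89 to 8.08 and correlations between pairs of arrays from 0.895 to 0.991. The labels call the tissue adrenal cortex, and 7 of 8 cortex markers were measured, with a mean signal over the list of 12.06 to 12.55 per cow. The 6 markers of the adrenal medulla, the tissue dissected away, averaged 7.41 to 12.25 per cow over the series. Of 6 plasma cell markers, cells with a large secretory pathway, JCHAIN alone was measured, and no erythrocyte marker was. On 6 arrays the median correlation with the other arrays was at most 0.958. Without them 16 transcripts of the pathway rose with year, 9 fell and 11 differed between classes, against 17, 10 and 9 with all arrays. The shares over all transcripts were 23.8%, 17.6% and 12.5% without them, against 25.7%, 19.2% and 11.6% with all arrays.

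Differences between year-season classes were found for 9 of the 52 transcripts. A joint test over the 25 classes with age in the fit (limma F-test, Benjamini-Hochberg over all transcripts) passed the threshold of 0.05 for 17.3% of the pathway, and for 11.6% of all 10986 transcripts. The 9 were SRP14 of the signal recognition particle (adjusted p = 1.38e-05), SPCS3 of signal peptidase (12862782, adjusted p = 1.62e-05), the translocon subunits SEC61G (3.09e-05) and SEC61B (6.11e-05), SPCS1 (0.00238), the disulfide isomerase PDIA5 (0.00558), the other SPCS3 transcript (0.00961), SSR3 of TRAP (0.0129) and TMED9 of the p24 family (0.0442). Nothing in the COPII coat, the COPI coat or the SNAREs passed. In bulk tissue, fewer cells of a type and less RNA per cell cannot be told apart.

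For 8 of these 9 transcripts the class with the highest mean was autumn2011, which holds 2 cows. SRP14, which together with SRP9 holds up elongation while the ribosome is brought to the membrane, had 9.19 in both autumn2011 cows and averaged 8.59 in the 3 cows of summer2004, its lowest class. SEC61G had 9.16 and 9.65 in autumn2011, against 8.42 and 8.74 in the 2 cows of summer2006. SPCS3 (12862782) had 7.71 and 8.10 in autumn2011, against 6.80 and 7.08 in summer2006. These classes were taken as the extremes of the 25, so the gap between them is a description. The count of 8 is a description too. The same 2 cows stand behind all 8, and the share over all transcripts was not counted. The span between highest and lowest class mean was 0.34 to 0.96 over the 9 transcripts, and the residual SDs within classes were 0.13 to 0.28. With classes of at least 4 cows only, SSR3 no longer passed (adjusted p = 0.0592), and with arrays centred on their medians TMED9 did not (adjusted p = 0.137).

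Along the years of slaughter the transcripts moved both ways. With season and age in the fit and the class as a random block, 17 of the 52 transcripts (32.7%) rose with year and 10 (19.2%) fell, against 25.7% rising and 19.2% falling among all 10986 transcripts. The median slope was 0.0013 log2 units per year over the pathway and 0.0026 over all transcripts. By complex the counts were as follows. Signal peptidase had 5 rising and 0 falling of 6 transcripts, TRAP 2 and 0 of 4, the translocon 3 and 2 of 6, the signal recognition particle 2 and 1 of 6, and the COPII coat 0 and 5 of 9. No test of the difference between these groups was made. The count of falls moved with single years, since without the second year 5 transcripts of the pathway fell (14% of all transcripts) and without 2011 3 fell (13.4%), whereas 15 rose with either year left out (21.8% and 20.1%). The labels give no date of RNA extraction or hybridisation, so year of slaughter, storage time and laboratory batch cannot be told apart.

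**Figure D1:**
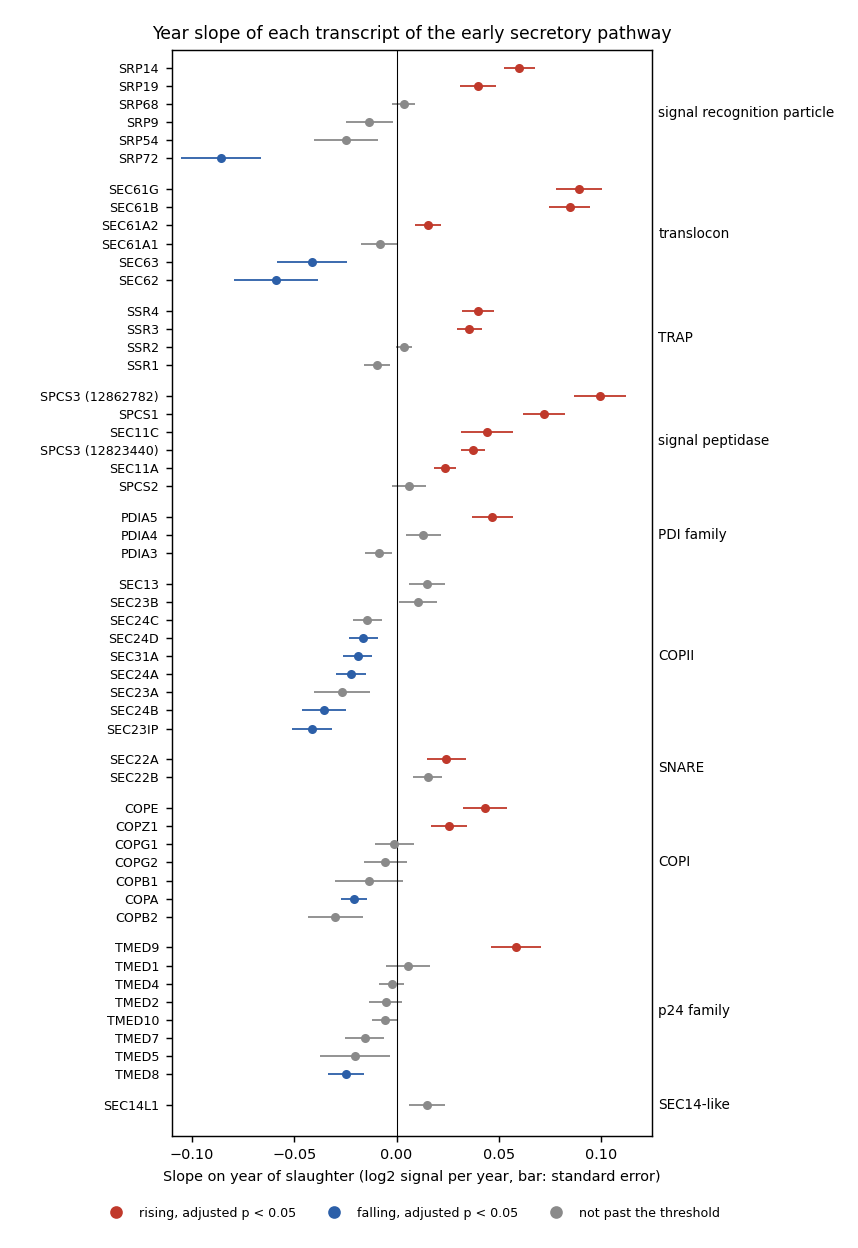
Slope of each of the 52 transcripts on year of slaughter in log2 signal per year (point) with its standard error (bar), grouped by complex. Of the 6 signal peptidase transcripts 5 lie right of 0 in red (rising, adjusted p below 0.05), and of the 9 COPII transcripts 5 lie left of 0 in blue (falling).

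Both small subunits of the translocon channel rose. SEC61B, the beta subunit, had median signals of 8.66, 8.40, 8.40, 8.73, 8.66, 8.87, 8.97 and 8.95 in the 8 years in their order. The 7 cows of the first year ran from 8.11 to 8.80 and the 15 cows of 2011 from 8.81 to 9.23, so these years did not overlap, while single cows of every year in between reached into the range of 2011. The slope was 0.085 ± 0.010 per year (SE, limma, adjusted p = 6.63e-12). The fitted line, not the medians, spans 1.51-fold from the first year to 2011. SEC61G, the gamma subunit, had medians of 8.69 in the first year, 8.55 in the second, 9.20 in 2010 and 9.21 in 2011, with 8.55 to 8.95 over the cows of the first year and 8.85 to 9.65 over those of 2011. These ranges overlapped only slightly, and its slope was 0.089 ± 0.011 per year (adjusted p = 6.51e-11). Fitted in the cows of each season alone, both slopes were positive in all 4 seasons, with 0.073 to 0.093 for SEC61B and 0.085 to 0.097 for SEC61G. The winter slopes (26 cows, from winter2007 to winter2010 only) were the ones that did not pass, with adjusted p of 0.606 for SEC61B and 0.445 for SEC61G.

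Of the pore-forming alpha genes, SEC61A2 rose and SEC61A1 did not pass. SEC61A1, the alpha subunit that forms the channel, had a slope of -0.0083 ± 0.0091 (adjusted p = 0.474). SEC61A2, the second alpha gene, rose by a small 0.015 ± 0.006 per year (adjusted p = 0.0421) and lost the call in 12 of 59 other fits. Of these 59 fits, 42 only left out 1 cow each. SEC62 and SEC63, membrane proteins that help short or weakly targeted chains into the channel and bring the chaperone BiP to it, fell. SEC62 had 7.57, 8.22 and 8.85 as lowest, median and highest signal in the first year, and 7.39, 7.99 and 8.89 in 2011. The ranges of these years overlapped almost entirely, with a slope of -0.059 ± 0.021 per year (adjusted p = 0.0136). SEC63 had a slope of -0.041 ± 0.017 (adjusted p = 0.0401). Both moved with a component shared by the whole array, SEC62 at r = 0.866 and SEC63 at 0.931 (defined further on).

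**Figure D2:**
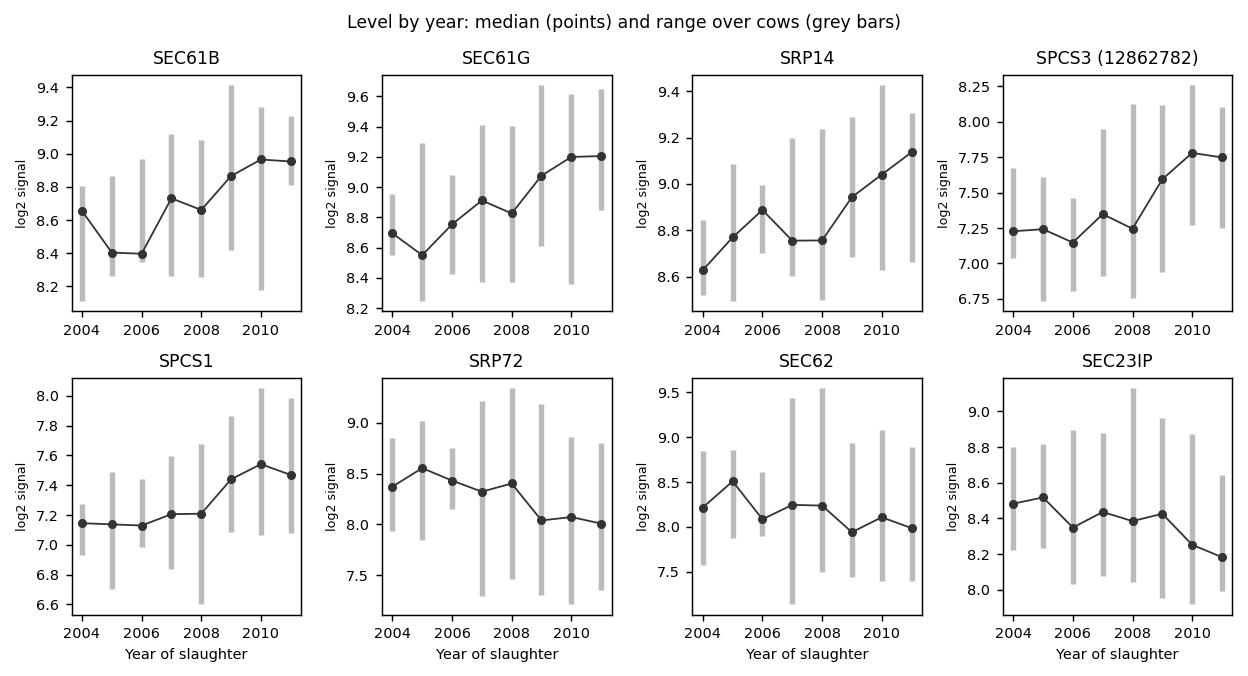
Log2 signal by year of slaughter for 8 transcripts: points are the medians over the cows of a year and grey bars run from the lowest to the highest cow. SEC61B, SEC61G, SRP14, SPCS3 and SPCS1 have their highest medians in 2010 or 2011, whereas SRP72, SEC62 and SEC23IP are lower in those years than in the second, with wide ranges throughout.

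In the signal recognition particle, subunits that stand in the same particle went opposite ways. SRP14 had 8.52, 8.63 and 8.84 as lowest, median and highest signal in the first year, and 8.67, 9.14 and 9.30 in 2011. Its medians stayed at 8.76 in the fourth year and in 2008 and were higher in each later year. The slope was 0.060 ± 0.008 (adjusted p = 3.81e-11), and SRP19, needed for assembly of the particle, had 0.040 ± 0.009 (adjusted p = 1.18e-04). SRP72, which with SRP68 forms a heterodimer on the particle's RNA, had 7.93, 8.37 and 8.86 in the first year, and 7.36, 8.01 and 8.81 in 2011. Its median was highest in the second year (8.55), and its ranges overlapped in all years. The slope of SRP72, -0.086 ± 0.020 (adjusted p = 1.64e-04), is the steepest fall of the pathway. SRP68, SRP54, which binds the signal peptide, and SRP9 did not pass, with slopes of 0.0036, -0.025 and -0.013.

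Signal peptidase was the complex with the most rising members. The transcript 12862782 of SPCS3, an accessory subunit, had 7.04, 7.23 and 7.68 as lowest, median and highest signal in the first year, and 7.25, 7.75 and 8.10 in 2011. Its yearly medians stayed between 7.15 and 7.35 until 2008 and were 7.59, 7.78 and 7.75 in 2009, 2010 and 2011. The slope of 0.0996 ± 0.0128 per year (adjusted p = 1.07e-10) is the steepest rise of the pathway. The fitted line, not the medians, spans 1.62-fold from the first year to 2011. The other SPCS3 transcript, 12823440, rose by 0.037 ± 0.006 per year (adjusted p = 8.98e-08) in the same direction. SPCS1, another accessory subunit, had 6.93, 7.15 and 7.28 in the first year, and 7.08, 7.47 and 7.98 in 2011. Its slope was 0.072 ± 0.010 (adjusted p = 3.39e-09), and its medians too were flat until 2008, at 7.13 to 7.21. The catalytic subunits rose too, SEC11C by 0.044 ± 0.013 (adjusted p = 0.00311) and SEC11A by 0.024 ± 0.005 (adjusted p = 9.77e-05). SPCS2 had a slope of 0.0062 ± 0.0084 (adjusted p = 0.567).

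Of the 4 TRAP subunits, SSR4 rose by 0.040 ± 0.008 per year (adjusted p = 1.62e-05) and SSR3 by 0.036 ± 0.006 (adjusted p = 5.02e-07), while SSR2 and SSR1 had slopes of 0.0038 and -0.0096 that did not pass. SSR4 had 11.09, 11.33 and 11.50 as lowest, median and highest signal in the first year, and 11.26, 11.52 and 11.81 in 2011. SSR2 varied least between cows of all 52 transcripts, with a residual SD of 0.083. Among the 3 disulfide isomerases, PDIA5 rose by 0.047 ± 0.010 (adjusted p = 5.53e-05). PDIA5 had medians of 8.54 in the first year and 8.69 in 2011 and its highest median, 8.80, in 2010. PDIA4 and PDIA3 did not pass, with slopes of 0.013 and -0.0088.

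Of the groups formed by the naming rule, COPII was the one with falls and no rise. SAR1A, a COPII partner that the naming rule does not take in, rose by 0.030 per year (limma, adjusted p = 0.00159). SAR1B, another such partner, did not pass (slope -0.036, adjusted p = 0.0820). SEC23IP, which binds SEC23 at ER exit sites, had 8.22, 8.48 and 8.80 as lowest, median and highest signal in the first year, and 8.00, 8.18 and 8.65 in 2011. Its slope was -0.041 ± 0.010 (adjusted p = 2.26e-04), and the ranges of all years overlapped. Of the 4 SEC24 genes, the cargo-binding subunits, 3 fell as well, SEC24B by 0.035 per year (adjusted p = 0.00385), SEC24A by 0.022 (0.00918) and SEC24D by 0.016 (just inside the threshold, and called in only 26 of 59 other fits). SEC31A of the outer cage fell by 0.019 per year (adjusted p = 0.0183), whereas its partner SEC13 had a slope of 0.015 and did not pass (adjusted p = 0.152). SEC24C, SEC23A and SEC23B, with slopes of -0.014, -0.027 and 0.011, did not pass either. With the array-wide component (defined further on) as a covariate, SEC23IP alone of the 5 kept its call, and SEC24A had an adjusted p of 0.251, SEC24B of 0.154, SEC31A of 0.186 and SEC24D of 0.221.

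The return route was mixed. In the COPI coat, COPE (epsilon subunit) rose by 0.043 ± 0.011 per year (adjusted p = 4.55e-04) and COPZ1 (zeta) by 0.026 ± 0.009 (0.0111), COPA (alpha) fell by 0.021 per year (0.00514), and COPB1, COPB2, COPG1 and COPG2 did not pass, with slopes of -0.030 to -0.0010. Of 8 p24 genes, TMED9 rose by 0.058 ± 0.012 (adjusted p = 2.94e-05) and TMED8 fell by 0.025 per year (0.0133). TMED9 had 7.76, 7.92 and 8.11 in the first year, and 7.96, 8.23 and 8.46 in 2011. The other 6 p24 genes had slopes of -0.020 to 0.0055. SEC22A, related to the ER-Golgi SNAREs, rose by 0.024 ± 0.010 (adjusted p = 0.0308), and SEC22B, a SNARE between ER and Golgi, did not pass (slope 0.015, adjusted p = 0.0718). The slope of SEC14L1 was 0.015 (adjusted p = 0.168).

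Much of the variation between cows of the same class lay on 1 axis. The first principal component of the residuals of all transcripts, with class and age removed, held 28.9% of their variance, and it is called the array-wide component here. The absolute correlation of a transcript with it over the 145 cows had a median of 0.704 in the pathway and 0.527 over all transcripts, which is a description, since each transcript also helped to build it. SRP72 (r = 0.934), SEC63 (0.931), COPB1 (0.931), SRP54 (0.910) and TMED7 (0.908) lay at one end and COPG1 (-0.866), COPZ1 (-0.863) and SEC24C (-0.834) at the other, while SRP14, SEC61A2 and SPCS3 (12862782) were close to 0, at -0.086, 0.0087 and 0.067. In all, 23 of the 52 lay above 0.5 and 16 below -0.5, against 2875 and 2917 of all 10986 transcripts. The score of the array on this component itself fell with year, by 0.114 SD per year (SE 0.044), with medians of 0.470 in the second year and -0.548 in 2011.

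With the component as a covariate, 15 of the 17 rising transcripts and 2 of the 10 falling ones kept their call. COPZ1, with 0.0058 per year (adjusted p = 0.382), and SEC61A2, with 0.014 (0.0901), were the rises that lost it. COPE kept its call at 0.020 per year (adjusted p = 0.0171), TMED9 at 0.033 (9.98e-04) and SSR4 at 0.024 (9.76e-04), each over 1.5 times smaller than without the covariate. The falls that kept the call were SRP72 with a slope of -0.036 (adjusted p = 2.88e-04) and SEC23IP with -0.024 (0.0131). SEC62 had -0.011 (adjusted p = 0.492) and SEC63 had 0.0014 (adjusted p = 0.901), a change of sign. SEC61B kept 0.067, SEC61G 0.073, SPCS1 0.062, SRP14 0.057 and SPCS3 (12862782) 0.100 per year. A further 6 transcripts came past the threshold under this fit and not without it, SPCS2, SEC22B and COPB1 rising and SEC24C, SEC61A1 and COPG1 falling. Over all transcripts, 23.9% rose and 17.7% fell under this fit. What the component stands for was not tested. The mean of the medulla markers had correlations of -0.248 to 0.291 with the 52 transcripts over the cows, given as a description, and 0 of the 6 passed for year. Of the 7 measured cortex markers CYP11A1 rose with year (adjusted p = 0.00292) and SCARB1 fell (0.0456). Among 4 endothelial markers PECAM1 rose (0.0456), and neither the 4 macrophage markers nor JCHAIN passed.

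**Figure D3:**
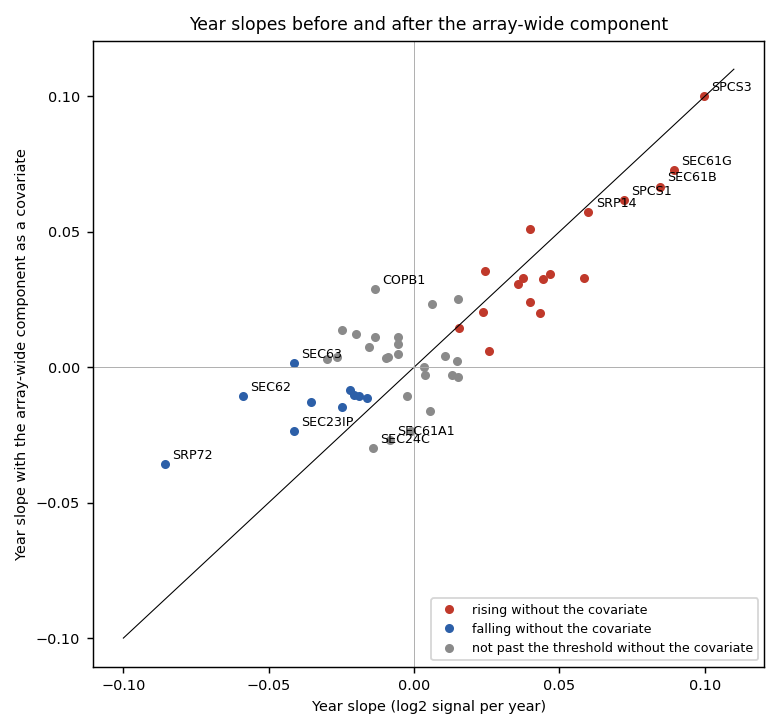
Year slope of the 52 transcripts in log2 signal per year with the array-wide component as a covariate (vertical axis) against the slope without it (horizontal axis); colours give the call without the covariate and the diagonal marks equal slopes. SPCS3 (12862782) and SRP14 lie near the diagonal, and SEC61G, SEC61B and SPCS1 lie below it. SEC62 and SEC63 lie close to 0 on the vertical axis.

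Season and age gave no calls. Of all 10986 transcripts, 0 passed for any season difference, 0 for summer against winter and 0 for age (0% in each case), and at an unadjusted p under 0.05 there were 1020, 1477 and 930. In the pathway, 5, 8 and 2 of the 52 transcripts had an unadjusted p under 0.05. The smallest adjusted p between summer and winter was that of SEC23IP, 0.236. SEC23IP had 7.92, 8.25 and 9.13 as lowest, median and highest signal in the 45 summer cows, against 8.08, 8.47 and 8.88 in the 26 winter cows, and the fitted difference of summer minus winter was -0.16 ± 0.05 (SE). The ranges overlapped widely, and a difference was not detectable with these cows. SEC23A, the GTPase-activating subunit of the coat, had 8.65, 9.39 and 10.29 in summer cows, against 8.70, 9.65 and 10.11 in winter cows (difference -0.20 ± 0.07, adjusted p = 0.278). For age the smallest adjusted p was 0.590.

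Within most complexes and families, the pairs past the threshold had r of both signs. In signal peptidase, the signal recognition particle and the SNARE pair they were all positive. Residuals with class and age removed were compared for all 140 pairs within the complexes and families (permutation test of 100000 permutations of the cows, two-sided, Benjamini-Hochberg over the 140). Of these, 117 passed, 68 with positive and 49 with negative r, and with the array-wide component removed 80 passed, 68 positive and 12 negative. The smallest absolute r that passed was 0.179, a size reached by 61.1% of the pairs of all 10986 transcripts, against 83.6% of the 140. With the component removed it was 0.183, reached by 27.4% of all pairs, against 57.1% of the 140. The pairs of all transcripts were not matched to the 140 for signal level. The mean r over pairs was 0.053 in the pathway and 0.0054 over all transcripts. With the component removed these means were 0.092 and 0.0093. By group, the mean r was 0.264 in signal peptidase (0.349 with the component removed), 0.263 in the signal recognition particle (0.155), 0.103 in COPII (0.204), -0.075 in COPI (0.096), -0.039 in the translocon (0.129), -0.012 in TRAP (0.094), -0.038 in the p24 family (-3.54e-04), -0.142 in the disulfide isomerases (0.078) and 0.488 for the only SNARE pair (0.306), as descriptions.

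The translocon split into blocks. SEC62 and SEC63 had r = 0.927 (rho = 0.916, both permutation p = 1e-05, the smallest that 100000 permutations give, adjusted p = 1.54e-05), 0.921 without the 2 cows farthest from the median and 0.663 with the component removed. SEC61B and SEC61G had r = 0.762 (rho = 0.723, permutation p = 1e-05 for both, adjusted p = 1.54e-05), 0.735 without the 2 farthest cows and 0.633 with the component removed. SEC61A1 and SEC63, the most opposed pair, had r = -0.717 (rho = -0.687, permutation p = 1e-05 for both, adjusted p = 1.54e-05, -0.689 without the 2 farthest cows), and with the component removed r = 0.146 (adjusted p = 0.127). SEC62 with SEC63 and SEC61B with SEC61G passed with and without the component, and SEC61A1 with SEC63 passed only before it was removed.

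Similar contrasts held in other groups. The permutation p of each pair named here was 1e-05 for r and rho unless another is given. COPB1 and COPB2, beta and beta-prime subunits of COPI, had r = 0.905 (rho = 0.909, 0.899 without the 2 farthest cows, 0.400 with the component removed), whereas COPB1 and the gamma subunit COPG1 had r = -0.798 (rho = -0.811, -0.786 without the 2 cows), which was 0.042 with the component removed. SRP54 and SRP72 had r = 0.901 (rho = 0.911, 0.894 without the 2 cows, 0.345 with the component removed). SRP14 and SRP72, opposed in their year slopes, had r = -0.161 (rho = -0.138, permutation adjusted p = 0.0658). SEC23A and SEC23IP of COPII had r = 0.766 (rho = 0.737, 0.747 without the 2 cows, 0.458 with the component removed), and SEC13 and SEC24B r = -0.773 (rho = -0.766, -0.771 without the 2 cows, -0.325 with the component removed).

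In signal peptidase, no pair had a negative r past the threshold. Of its 15 pairs, 11 passed, and 14 did so with the component removed, all positive. The signal recognition particle had 7 of 15 pairs past the threshold, also all positive, and with the component removed 8, of which SRP14 with SRP72 was negative (r = -0.226). SEC11A and SPCS3 (12862782) had r = 0.517 (rho = 0.518, permutation adjusted p = 1.54e-05), 0.511 without the 2 farthest cows and 0.548 with the component removed. SEC11C and SPCS2 were at the other end, with r = -0.128 (rho = -0.128, permutation adjusted p = 0.143). The 2 SPCS3 transcripts correlated at r = 0.327 (rho = 0.301, permutation adjusted p = 9.51e-05). In TRAP, SSR2 and SSR4 had r = 0.667 (rho = 0.679, 0.646 without the 2 cows, 0.360 with the component removed) and SSR1 and SSR4 -0.630 (rho = -0.631, -0.602), which was -0.167 with the component removed (permutation adjusted p = 0.0765). In the p24 family, TMED2 and TMED7 had r = 0.732 (rho = 0.732, 0.711 without the 2 cows) and TMED7 and TMED9 -0.722 (rho = -0.683, -0.698), and neither pair passed with the component removed (0.097 and -0.023). PDIA3 and PDIA4 had r = -0.453 (rho = -0.505, -0.472 without the 2 cows), and with the component removed the sign turned, to 0.183 (permutation adjusted p = 0.0488). PDIA4 and PDIA5 had 0.444 (rho = 0.389, 0.416 without the 2 cows), and 0.118 with the component removed (permutation adjusted p = 0.230). SEC22A and SEC22B had 0.488 (rho = 0.452, 0.473 without the 2 cows, 0.306 with the component removed).

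**Figure D4:**
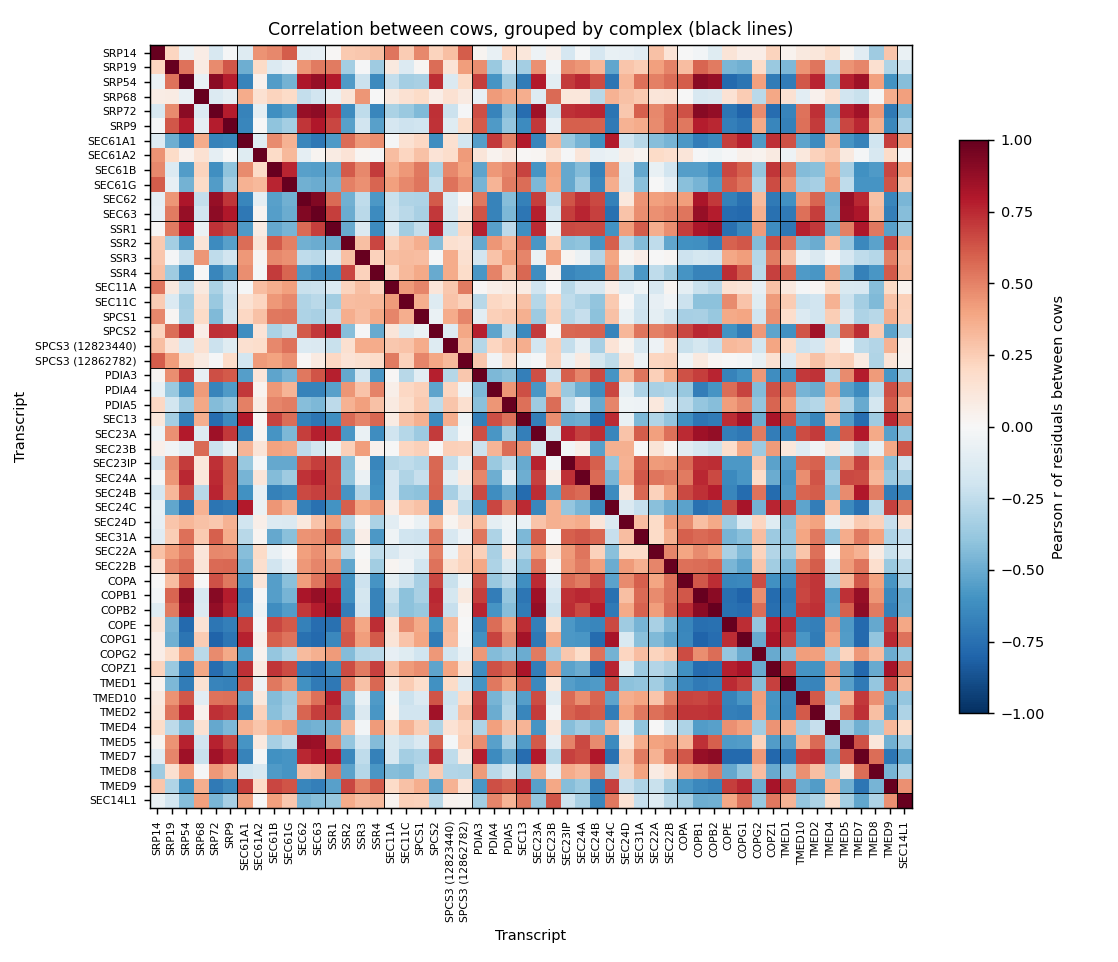
Pearson r between the residuals of the 52 transcripts over the 145 cows, from -1 (blue) to 1 (red), with black lines between complexes. Red blocks join SEC62 and SEC63 with SRP54, SRP72, COPB1 and COPB2, blue cells set these against SEC61A1, COPG1 and SEC24C, and the signal peptidase block is pale red apart from SPCS2.

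The transcripts whose residuals were most like the mean of the 52 standardised members were, by r over the 145 cows, RAN (0.804), NIFK (0.752), OSTC (0.751), UBE2N (0.742), TFG (0.730), RAMAC (0.725), PSMD7 (0.719) and ACTR10 (0.710). These values are a description.

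Partner genes outside the naming rule also moved both ways. Of 12 subunits of the oligosaccharyltransferase, which adds sugar chains to entering proteins, 6 rose and 2 fell with year, the steepest rises being those of the small subunits KRTCAP2 (0.107 per year, adjusted p = 1.15e-11), OST4 (0.079, 3.43e-10) and DAD1 (0.056, 1.58e-10), while STT3B, a catalytic subunit, fell by 0.046 per year (0.00413). STT3B lay at r = 0.905 on the array-wide component, and with it as a covariate its slope was -0.012 (adjusted p = 0.159), whereas KRTCAP2 kept 0.082, OST4 0.059 and DAD1 0.043. Of 13 measured partners of the COPII and COPI coats 7 rose and 1 fell, GBF1, the exchange factor for ARF in COPI assembly, by 0.047 per year (adjusted p = 2.95e-09). ARF4 (0.032) and the KDEL receptors KDELR2 (0.020) and KDELR3 (0.044), which return ER proteins, rose.

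Of 14 measured ER chaperones and folding enzymes 2 rose and 4 fell, with ERP29 at 0.047 (adjusted p = 1.84e-06) and UGGT1, the folding sensor of glycoproteins, at -0.070 per year (1.57e-05). CANX, calnexin, fell by 0.031 (adjusted p = 6.57e-04). UGGT1 lay at r = 0.832 and CANX at 0.906 on the array-wide component, and with it as a covariate their slopes were -0.039 (adjusted p = 1.67e-04) and -0.012 (0.0115). Of 17 genes of the unfolded protein response and ER-associated degradation 4 rose and 3 fell, with DERL2 (0.053, adjusted p = 7.84e-11), CREB3 (0.040) and XBP1 (0.047, 2.90e-04) rising and ATF6 falling by 0.034 (0.0115). ATF6 lay at r = 0.894 on the component, and its slope with the covariate was -0.0065 (adjusted p = 0.431). The other falls of this list were SEL1L (-0.026, 0.0077) and CREB3L2 (-0.020, 0.0103). With the covariate SEL1L had -0.012 (adjusted p = 0.193), and CREB3L2 kept its call at -0.024 (0.0026). Of 8 ER-Golgi SNAREs 4 rose, among them STX5 (0.051, adjusted p = 1.52e-04). Of 6 tail-anchor insertion factors 3 rose, GET1 by 0.054 (8.03e-08). Of 8 cargo receptors 1 rose, BCAP31 (0.025, and 0.011 with the covariate, adjusted p = 0.0894), and none of 3 genes of the SRP receptor and TRAM passed. These counts stand beside 25.7% rising and 19.2% falling over all transcripts. Over the 81 partner genes 27 rose and 10 fell, and 19 and 6 of these kept their call with the component as a covariate.

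**Figure D5:**
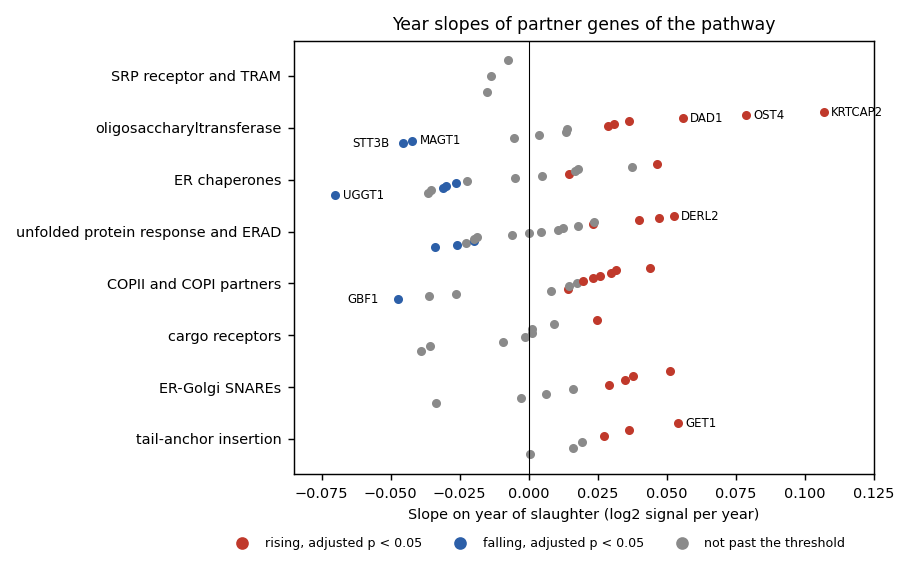
Slope on year of slaughter in log2 signal per year for genes of 8 partner lists, 1 point per gene, red where it rose and blue where it fell at an adjusted p below 0.05. KRTCAP2 and OST4 of the oligosaccharyltransferase lie farthest right and UGGT1 of the chaperones farthest left.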

How the data were processed

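Adrenal cortex RNA was hybridised to the custom GeneChip Bovine Gene v1 Array, designed on the Btau 4.0 genome. The deposited values are log2 signals that the authors computed in Affymetrix Expression Console with RMA (background correction, quantile normalization, probe summary), keeping transcripts detected above background. Quantile normalization gives all arrays one distribution, so values are relative to the whole array. Of 147 samples, 2 had neither class and age in the labels nor values and were left out. The platform annotation gave 1 symbol to 8863 transcripts, several to 377 and none to 1746.

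Linear models in limma 3.58.1 (R 4.3.3, statmod 1.5.0) were fitted first with year-season class and age, then with linear year, season and age and the class as a random block (estimated correlation -0.015). The block did not reduce the calls. Without it 24.8% of all transcripts rose and 18.2% fell, against 25.7% and 19.2% with it. A winter counted for the year it began in. P-values were adjusted by Benjamini-Hochberg over all 10986 transcripts at 0.05. The sire and dam terms of the study's model were left out. The fits were tested on simulated data. Members and gene lists were chosen with earlier results of these data known. The text names the transcripts with the extreme slopes, spreads, means and pairs, the smallest adjusted p in each group, and up to 3 leading partners of a list with others past the threshold. The number of arrays limits the precision.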

Additional observations from a re-analysis of the deposited data

Results flagged for a closer look

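Among the 9 transcripts that differed between year-season classes, single cows lay far from the other cows of their class in 12 of 171 comparisons (Dixon's test in classes of 4 to 10 cows), where chance gives about 1 in 20. TMED9 had a low cow at 7.73 in autumn2010 (nearest cow 8.28), at 8.00 in spring2011 (8.19) and at 7.80 in summer2007 (8.16). SPCS1 had a low cow at 6.66 in winter2008 (7.16). SPCS3 (12862782) had a high cow at 7.68 in autumn2004 (7.30) and low cows at 7.25 in spring2011 (7.72) and 7.35 in winter2010 (7.74). SRP14 had high cows at 9.16 in winter2007 (8.87) and 9.04 in winter2008 (8.79). SEC61B had a high cow at 8.97 in spring2006 (8.37). SSR3 had a high cow at 10.28 in spring2005 (9.87) and a low cow at 9.85 in winter2010 (10.15).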

How the results depend on the processing

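Of the 17 rising transcripts 13, and of the 10 falling ones 2 (SRP72 and SEC23IP), kept their call in every other fit of the year slope in which they were run (59, and 58 for SRP19, which 1 filter on dim transcripts removed), fits within single seasons not counted. Of these fits, 42 left out 1 cow each, from classes of 5 or fewer cows. Those 42 fits share nearly all cows with the main fit. The share of all transcripts that kept its call in every fit was not counted. The count of falling transcripts was 5 with the array-wide component as a covariate (17.7% of all transcripts, against 19.2% without it), 3 from the fourth year on (11.8%), 5 without the second year (14%) and 3 without 2011 (13.4%). The count of transcripts that differed between classes was 23 with array weights, whose estimation gave a convergence warning and under which 39.1% of all transcripts passed, and 16 with the array-wide component (23.1%, against 11.6% without it). Within single seasons, a split chosen like the component covariate after seeing the data, 0 transcripts rose in winter, 7 in spring, 9 in summer and 4 in autumn, and 0, 4, 0 and 0 fell, against 0%, 8.23%, 10.1% and 2.42% of all transcripts rising and 0%, 4.69%, 6.74% and 1.36% falling; 15 of the 17 rising and 5 of the 10 falling transcripts kept their sign in all 4 seasons. The share of all transcripts that kept its sign in all 4 seasons was not counted. SEC63 reversed to 0.0014 with the component. Of the 7 changes of sign within seasons, none with an adjusted p under 0.05, 6 were in winter cows (SEC31A 0.069, COPA 0.047, SEC24A 0.019, SEC23IP 0.011, SEC22A -0.016 and SEC11C -0.013) and 1 in autumn cows (SEC24D 0.011). Winter slopes rest on the classes winter2007 to winter2010 only, a shorter span of years than in the other seasons. Single cows of classes of 5 or fewer, 42 in all, were left out 1 at a time. This gave 15 to 17 rising, 8 to 11 falling and 8 to 10 differing between classes. For seasons, summer against winter and age it gave 0. The shares over all transcripts in these fits were not counted. No paired analysis was possible because the replicate numbers only name the cows of a class.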
